A study of Mus musculus with 24 samples.

Results

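The genes described here encode the proteins of the cytosolic ribosome. They were chosen by symbol: Rpl or Rps followed by a number (with an optional a, l, x or y ending), or Rplp0, Rplp1, Rplp2 and Rpsa, without pseudogenes and without the Rps6k kinases. Of 19938 genes that had a probe set carrying a single gene symbol, 59 met the rule. They comprised 34 Rpl genes of the large subunit, 22 genes of the small subunit (21 Rps genes and Rpsa) and the 3 Rplp genes of the stalk, where elongation factors dock. Where a gene had several probe sets, the one with the highest mean was used. The symbol also admits 6 genes named after another ribosomal protein with an l ending. Of these Rpl10l, Rpl39l and Rpl3l lay too low to be tested, with values between 3.66 and 5.86 on all arrays, and 56 genes were tested. A further 16 ribosomal protein symbols, among them Rpl3, Rpl11, Rpl13a and Rps27, were found only on probe sets that carry several symbols and have no value here.

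RNA was measured on 24 arrays of conventional dendritic cells (cDC) from the spleen of female mice aged 8 to 10 weeks. The mice were of the strain NOD/ShiLt (NOD), which develops autoimmune diabetes, or C57BL/6 (B6), and had received CpG-A, an oligonucleotide sensed by Toll-like receptor 9, or PBS 12 h before. Cells positive for CD11c were sorted into a CD8+ and a CD11b+ subset after collagenase digestion, which with strain and injection gave 8 groups of 3 arrays. Nothing in the labels says that the 3 replicates of a group were separate animals, so a p-value reflects the spread between these arrays, and that spread may be technical. Values are log2 expression values, and a difference between groups of 3 arrays is given on that scale, ± its standard error in limma. A gene is said to have risen or fallen only where its limma p, adjusted by Benjamini-Hochberg over all 11228 genes tested in that comparison, was under 0.05. Each array holds the RNA of a sorted population, so fewer cells of a type and less RNA per cell cannot be told apart.

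The genes of the sort markers separated the subsets. Cd8a averaged between 11.06 and 11.52 in the 4 groups of CD8+ cDC and between 5.44 and 8.38 in the 4 groups of CD11b+ cDC, and Itgam, which encodes CD11b, lay between 4.83 and 5.07 against 7.02 to 9.0. Marker genes of the sorted subsets themselves were lower after CpG, together with the ribosomal protein genes. Of 10 CD8+ cDC (cDC1) markers 8 fell and 1 rose in B6 CD8+ cDC (median -1.56) and 6 fell and 1 rose in NOD CD8+ cDC (-0.85). Of 8 CD11b+ cDC (cDC2) markers 5 fell and 1 rose in B6 CD11b+ cDC (-1.29) and 4 fell and 1 rose in NOD CD11b+ cDC (-0.34). Itgam went from a mean of 9.0 to 7.02 in B6 and from 8.78 to 7.38 in NOD CD11b+ cDC. Of 11 markers of natural killer cells 10 rose and 1 fell with CpG in CD11b+ cDC of B6 mice (median 3.57). The mean of the 11 went from between 6.72 and 7.39 on the PBS arrays to between 9.66 and 10.58. In CD11b+ cDC of NOD mice 7 of them rose and 0 fell (median 1.05). In CD8+ cDC 5 rose and 1 fell in B6 (0.56) and 4 rose and 1 fell in NOD mice (0.45). The median difference of B cell markers, NOD minus B6, was between 0.60 and 1.26 in the 4 strain comparisons, with 2 to 4 of 8 genes higher, and that of plasma cell markers between 0.74 and 0.90, with 1 to 3 of 4 higher and 1 lower in CD11b+ cDC after CpG. Between strains in CD11b+ cDC, natural killer cell markers had a median of -3.56 after CpG (9 of 11 lower in NOD) and -0.71 under PBS (5 lower), and red pulp macrophage markers one of -1.20 under PBS (3 of 8 lower). The part of these differences in the results below was not tested.

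A ribosome is built from ribosomal RNA and a fixed set of proteins, which cells make in step. Most of the messengers begin with a run of pyrimidines, the 5′ terminal oligopyrimidine (TOP) tract, through which the kinase mTORC1 and the protein LARP1 control their translation and stability. The transcription factor MYC raises the genes of ribosome production as a group. Dendritic cells that sense microbial DNA switch from growth and antigen uptake to cytokine production and antigen presentation.

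Promoter sequences were available from RefSeq for 47 of the 59 genes (build GRCm38.p6). The following 100 bases run 5′ to 3′ on the transcribed strand, 70 before and 30 from the annotated start, and capitals mark runs of at least 8 C or T letters. Rpl14 is shown because it fell furthest, Rpl4 and Rpl5 because they fell after CpG under every scaling of the arrays that was tried, Rpl28 and Rps6 because they fell by less in all 4 CpG comparisons, Rpl6 because it fell but has no such run, Rpl38 because it did not pass in any, and Rps27l because it rose.
Rpl14 (chr9:120571447-120571546, + strand): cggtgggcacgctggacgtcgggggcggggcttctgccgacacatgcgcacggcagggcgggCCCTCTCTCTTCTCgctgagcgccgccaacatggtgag
Rpl4 (chr9:64173317-64173416, + strand): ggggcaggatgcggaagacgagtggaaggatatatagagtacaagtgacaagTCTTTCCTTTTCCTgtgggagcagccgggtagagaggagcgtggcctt
Rpl5 (chr5:107900458-107900557, + strand): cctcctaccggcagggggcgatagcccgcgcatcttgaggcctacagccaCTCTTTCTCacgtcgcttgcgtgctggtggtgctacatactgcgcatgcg
Rpl6 (chr5:121204431-121204530, + strand): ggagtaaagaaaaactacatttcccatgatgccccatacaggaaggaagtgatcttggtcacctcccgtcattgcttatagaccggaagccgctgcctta
Rpl28 (chr7:4792895-4792994, + strand): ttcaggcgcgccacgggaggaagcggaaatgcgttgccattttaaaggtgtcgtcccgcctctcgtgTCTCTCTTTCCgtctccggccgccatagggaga
Rps6 (chr4:86857338-86857437, - strand): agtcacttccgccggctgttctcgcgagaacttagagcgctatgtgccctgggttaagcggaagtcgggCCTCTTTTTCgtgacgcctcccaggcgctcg
Rpl38 (chr11:114668510-114668609, + strand): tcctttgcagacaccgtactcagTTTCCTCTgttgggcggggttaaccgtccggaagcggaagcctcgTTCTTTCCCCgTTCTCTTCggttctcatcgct
Rps27l (chr9:66946016-66946115, + strand): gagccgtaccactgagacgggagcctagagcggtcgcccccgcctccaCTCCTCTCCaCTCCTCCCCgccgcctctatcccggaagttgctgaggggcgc

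Such a run lay in this window of 33 of the genes' 56 promoter entries (58.9%), against 36.4% of all 32851 entries. In Rpl14, Rpl28 and Rps6, which fell, and in Rpl38, which did not pass, a run spans or abuts the annotated start, where a TOP tract begins. In Rpl4 and Rpl5, which fell, and in Rps27l, which rose, the runs printed lie upstream of it. Over the whole 300-base window and both strands, CCGGAAG (letters of an ETS site) was found in 33.9% of the genes' entries and 8.86% of all, GGGCGG (an SP1 site) in 55.4% and 35.7%, and AAGATGG (a YY1 site) in 7.14% and 6.34%. CCGGAAG and AAGATGG can overlap in the letters AAG. The motifs were chosen after expression values had been seen, and a match is a description of letters. Runs and matches stood in genes that fell (Rpl4, Rps6), in Rpl38, which did not pass, and in Rps27l, which rose. Another promoter entry of Rps27l, not printed here, had no such run and no match to CCGGAAG or AAGATGG.

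The first question was how the ribosomal protein genes differed between CpG and PBS in each strain and subset. In CD8+ cDC of B6 mice 38 of 56 fell and 1 rose (67.9% lower), where 36.6% of all genes tested fell and 21.1% rose. The median difference was -0.235 against -0.099 for all genes. In CD8+ cDC of NOD mice 29 fell and 1 rose, with a median of -0.172, and 25.5% of all genes fell and 15.1% rose. In CD11b+ cDC of B6 mice 40 fell and 1 rose, with a median of -0.226, and 23% of all genes fell and 15.9% rose. In CD11b+ cDC of NOD mice 24 fell and 32 did not pass, with a median of -0.176, and 5.73% of all genes fell and 9.7% rose. Both NOD counts rested on single arrays: 15 fell in CD8+ cDC without CpG replicate 1, and in CD11b+ cDC 12 to 14 did without PBS replicate 2, PBS replicate 3 or CpG replicate 1. Fitting only the groups compared left 10 genes passing in NOD CD8+ cDC.

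The shift was seen on every array. The median over the 56 genes was 12.32, 12.33 and 12.29 on the PBS arrays of B6 CD8+ cDC and 11.96, 12.05 and 12.10 on the CpG arrays. It was 12.30, 12.31 and 12.26 against 11.94, 11.98 and 11.95 in B6 CD11b+ cDC. In NOD mice it was 12.29, 12.36 and 12.30 against 12.08, 12.16 and 12.19 in CD8+ cDC, and 12.15, 12.26 and 12.27 against 12.03, 12.03 and 12.11 in CD11b+ cDC. The CpG arrays lay below the PBS arrays in all 4 pairs without overlap. The median of all genes tested also lay lower after CpG, by 0.246 and 0.146 in CD8+ cDC of B6 and NOD mice, by 0.122 in B6 CD11b+ cDC and by 0.017 in NOD CD11b+ cDC, while that of all probe sets moved by at most 0.047.

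**Figure D1:**
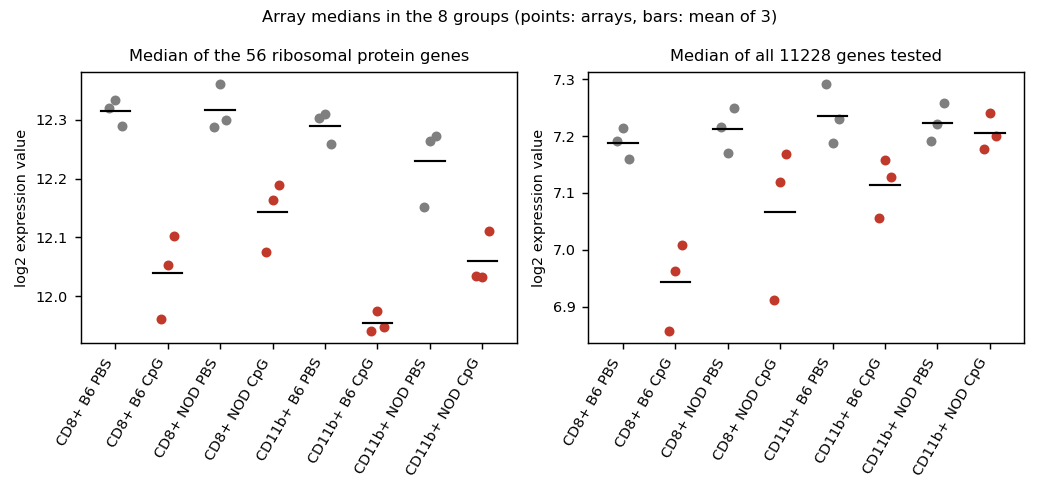
Median log2 expression value on each of the 24 arrays for the 56 ribosomal protein genes (left) and for all 11228 genes tested (right), by group; points are arrays, bars the mean of 3, grey PBS and red CpG. The ribosomal protein medians of the CpG arrays lie between 11.94 and 12.19, and those of the PBS arrays between 12.15 and 12.36.

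This shift of the arrays bears on the counts, and the shares of all genes given above hold for the deposited values only. Counts under the other scalings are given without such shares, so they cannot be set against all genes. With each array centred on the median of the genes tested, 10 genes were lower and 8 higher in B6 CD8+ cDC, 5 lower and 2 higher in NOD CD8+ cDC, 23 lower and 1 higher in B6 CD11b+ cDC and 16 lower in NOD CD11b+ cDC. Of the genes lower as deposited, 11 of 38 in B6 CD8+ cDC and 2 of 29 in NOD CD8+ cDC turned sign, and none of these passed as higher by limma. The genes' median then was 0.010, -0.026, -0.104 and -0.158, against 0.146, 0.062, 0.050 and -0.022 for all genes. Centring shifts every gene of a comparison by the same amount, so it cannot change the gap between these medians. With arrays centred on the median of all probe sets the counts lower were 39, 26, 39 and 8. Genes lower in the deposited values and under all 3 other scalings numbered 10, 5, 23 and 7 in the same order. In B6 CD8+ cDC these were Rpl4, Rpl5, Rpl6, Rpl8, Rpl10a, Rpl14, Rpl30, Rps3, Rps13 and Rpsa. In NOD CD8+ cDC they were Rpl4, Rpl5, Rpl6, Rpl8 and Rpl14, and Rpl4 and Rpl5 were among them in all 4 comparisons.

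**Figure D2:**
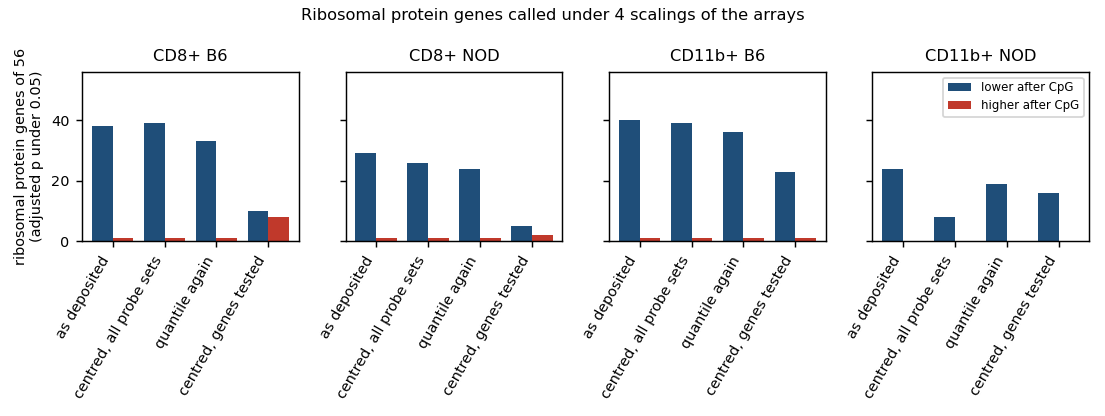
Number of the 56 ribosomal protein genes lower (blue) and higher (red) after CpG at an adjusted p under 0.05 in the limma fit, under the deposited values and 3 other scalings of the arrays, in each strain and subset. Centring on the genes tested reduces the genes lower in B6 CD8+ cDC from 38 to 10.

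Among proteins of the large subunit, Rpl14 fell the most in every comparison. It was at 10.14, 10.09 and 10.05 on the PBS arrays of B6 CD8+ cDC and at 8.97, 8.85 and 9.02 after CpG, a difference of -1.15 ± 0.14 (limma adjusted p = 5.69e-07), or a value 54.8% lower on the linear scale. In CD8+ cDC of NOD mice it went from 9.76, 10.00 and 9.87 to 8.86, 9.41 and 9.48 (-0.63 ± 0.14, adjusted p = 0.0014). In B6 CD11b+ cDC the fall was -1.15 ± 0.14 (adjusted p = 1.13e-06) and in NOD CD11b+ cDC -0.49 ± 0.14 (adjusted p = 0.022). The groups did not overlap in any of the 4 comparisons. In NOD CD11b+ cDC the call ended with arrays centred on all probe sets (adjusted p = 0.0819) and without PBS replicate 1 (0.0503), PBS replicate 2 (0.0801) or CpG replicate 1 (0.185).

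Rpl4, Rpl5 and Rpl6 also fell in all 4 comparisons. Rpl5 belongs to the particle that carries 5S ribosomal RNA and can bind the p53 regulator MDM2. Rpl4 was at 12.33, 12.35 and 12.29 under PBS and at 11.59, 11.67 and 11.79 after CpG in B6 CD8+ cDC (-0.64 ± 0.06, limma adjusted p = 1.78e-08). In NOD CD8+ cDC it went from 12.35, 12.39 and 12.36 to 11.93, 12.07 and 12.10 (-0.34 ± 0.06, adjusted p = 0.000224), and the groups did not overlap. The strain interaction of Rpl4 in CD8+ cDC did not pass (0.30 ± 0.09, adjusted p = 0.0606). In CD11b+ cDC it fell by 0.59 ± 0.06 in B6 and by 0.31 ± 0.06 in NOD mice. Rpl5 fell by 0.61, 0.35, 0.58 and 0.32 and Rpl6 by 0.65, 0.40, 0.64 and 0.31 in CD8+ B6, CD8+ NOD, CD11b+ B6 and CD11b+ NOD cells. Rpl8 fell by 0.80, 0.46, 0.47 and 0.37 in that order. Rpl30 fell by 0.78, 0.46 and 0.54 in the first 3. Its values over all arrays lay between 7.11 and 8.40. Rpl22, whose protein also binds other RNAs and matters for lymphocyte development, fell by 0.45, 0.31, 0.53 and 0.32, and Rpl10, which is placed late in assembly, by 0.37, 0.21, 0.26 and 0.25.

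On the small subunit Rps3, which sits at the entry channel of the messenger and also binds NF-kB, was at 11.79, 11.83 and 11.83 under PBS in B6 CD8+ cDC. After CpG it was at 11.24, 11.35 and 11.43 (-0.47 ± 0.06, limma adjusted p = 7.16e-07). Rpsa, also known as the laminin receptor precursor, fell by 0.42, 0.21, 0.44 and 0.30 over the same 4 comparisons. Rps6, the substrate of S6 kinase that serves as a read-out of mTORC1, went from 12.47, 12.43 and 12.45 to 12.19, 12.16 and 12.25 in B6 CD8+ cDC (-0.25 ± 0.05), and fell by 0.18, 0.27 and 0.23 in the other comparisons. Rps25, needed for some forms of internal initiation, fell by 0.29, 0.21, 0.31 and 0.175.

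Of the 3 stalk genes 2, 1, 2 and 1 fell. Rplp0, the base of the stalk and a common reference gene in quantitative PCR, was at 12.54, 12.49 and 12.54 under PBS in B6 CD8+ cDC and at 12.29, 12.31 and 12.37 after CpG. Its fall of 0.20 ± 0.05 (limma adjusted p = 0.00097) was joined by falls of 0.13, 0.31 and 0.22 in CD8+ NOD, CD11b+ B6 and CD11b+ NOD cells. With arrays centred on the genes tested Rplp0 turned to 0.05 and 0.02 in CD8+ cDC of B6 and NOD mice and no longer passed. Rplp1 fell by 0.14 and 0.17 in the B6 comparisons, the first of which turned to 0.10 under that centring. Rplp2 passed in none of the comparisons.

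In all 4 comparisons 21 of the 56 genes fell: the ones above other than Rpl30 and the stalk genes Rplp1 and Rplp2, and Rpl9, Rpl10a, Rpl13, Rpl28, Rpl29, Rps2, Rps4x, Rps13 and Rps18. Of all genes tested, at most the 5.73% that fell in NOD CD11b+ cDC can have fallen in all 4. Another 11 of the 56 passed in none, and the share of all genes that did so was not counted. Of these Rps29, near the top of the scale, was at 13.32, 13.33 and 13.33 under PBS and 13.29, 13.33 and 13.36 after CpG in B6 CD8+ cDC, where the groups overlapped. Rpl38, whose protein is known for a part in Hox messenger translation, went from 12.45, 12.44 and 12.46 to 12.39, 12.37 and 12.43 (-0.05 ± 0.05), where the groups lay apart without passing. Rps20, Rps12 and Rpl23a also lay within 0.10 of 0 in each comparison.

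**Figure D3:**
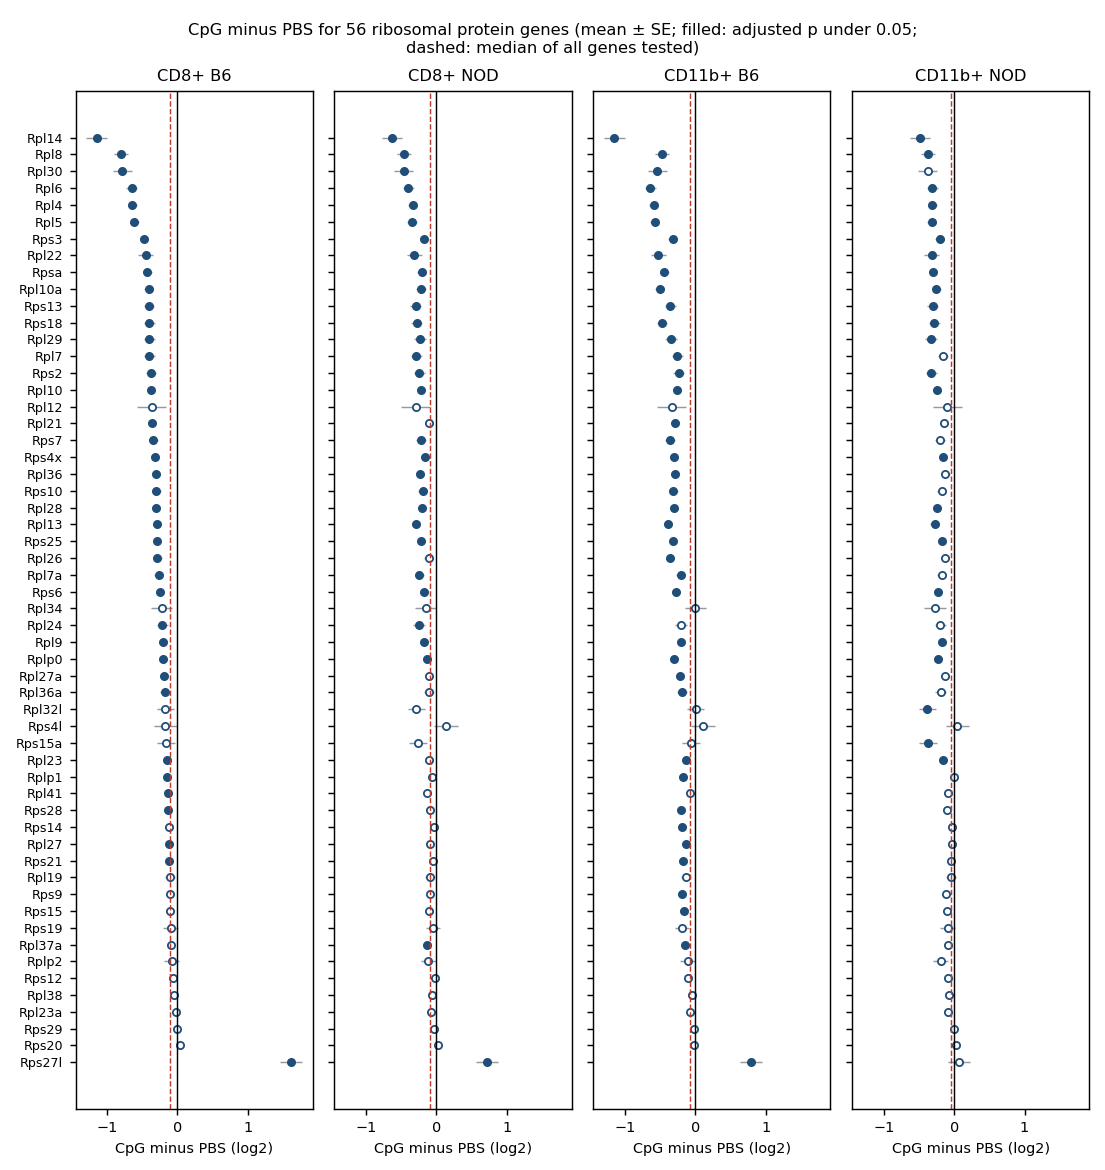
Log2 difference CpG minus PBS for each of the 56 ribosomal protein genes in 4 comparisons (points with SE of the limma fit, n = 3 arrays per group; filled where the adjusted p is under 0.05; dashed line, median of all genes tested), ordered by the first comparison. Rpl14 lies at -1.15, -0.63, -1.15 and -0.49, and Rps27l at 1.61, 0.72, 0.79 and 0.07.

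Genes of the large subunit had medians of -0.287, -0.215, -0.262 and -0.193 and those of the small subunit -0.166, -0.135, -0.195 and -0.134. In B6 CD8+ cDC 24 of 31 (77.4%) and 12 of 22 (54.5%) fell, the widest gap of the 4 comparisons. The shares were 58.1% and 45.5% in NOD CD8+, 74.2% and 68.2% in B6 CD11b+, and 45.2% and 40.9% in NOD CD11b+ cDC. The size of the difference also went with the level of the probe set. A division at a mean of 12, made after the values were seen, left 32 genes above with medians of -0.169, -0.116, -0.200 and -0.125 and 24 below with -0.351, -0.241, -0.286 and -0.238. The same was seen within genes. Of the 39 genes with more than 1 probe set, the probe set with the lowest mean showed the more negative difference in 29, 29, 26 and 32 in the 4 comparisons. For Rpsa, the difference in B6 CD8+ cDC ran from -0.84 to -0.42 over 5 probe sets, and for Rplp0 it was -0.60 and -0.20. All 195 probe sets of these 39 genes were below 0 in B6 CD8+ cDC and 194 in each of the other comparisons. Of all 11228 genes tested, with 1 probe set each, 6355, 6546, 6450 and 6335 were below 0 in the 4 comparisons. These counts hold for the deposited values, and the shift of the arrays bears on them as well. Many ribosomal protein genes have near-identical processed copies in the genome, so the assignment of a probe set to 1 gene is uncertain, and probe sets of a gene are not independent.

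Rps27l went the other way. Its protein differs little from Rps27, and the gene is a known target of p53. In B6 CD8+ cDC it was at 10.27, 10.38 and 10.33 under PBS and at 11.84, 12.03 and 11.95 after CpG, a rise of 1.61 ± 0.15 (limma adjusted p = 9.64e-09), or 3.06-fold. In NOD CD8+ cDC it went from 10.09, 10.31 and 10.32 to 10.84, 11.22 and 10.82 (0.72 ± 0.15, adjusted p = 0.000765). In B6 CD11b+ cDC it rose by 0.79 ± 0.15 (adjusted p = 0.000267), from 10.02, 10.11 and 9.77 to 10.68, 11.01 and 10.58. The PBS and CpG arrays did not overlap in these 3 comparisons. In NOD CD11b+ cDC the values were 9.35, 10.18 and 10.00 under PBS and 9.88, 9.96 and 9.93 after CpG, which overlapped (0.07 ± 0.15, adjusted p = 0.816). The gene rests on 1 probe set, and no value of Rps27 itself was measured on a probe set with a single symbol.

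The CpG differences themselves were compared between strains and subsets as interactions. In CD8+ cDC the rise of Rps27l was smaller in NOD than in B6 by 0.90 ± 0.22 (limma adjusted p = 0.0204), a call lost with arrays centred on all probe sets (adjusted p = 0.0604) and without B6 CpG replicate 2, NOD PBS replicate 2 or 3 or NOD CpG replicate 3 (0.0503 to 0.0631). In B6 mice the rise was larger in CD8+ than in CD11b+ cDC by 0.82 ± 0.22 (adjusted p = 0.0143, at most 0.0427 over the alternatives). Rps3 fell less in NOD than in B6 CD8+ cDC, by 0.30 ± 0.09 (adjusted p = 0.0493). That call was lost in 19 alternatives, with an adjusted p of up to 0.188. Over all genes, 4.02% and 13.4% passed in these tests. No ribosomal protein gene passed by limma in the strain interaction of CD11b+ cDC or the subset interaction of NOD mice, where 4.38% and 6.8% of all genes did. In those tests 10 and 1 of the 56 genes had an unadjusted limma p under 0.05, which was not counted over all genes. With the replicate number as a block 4 genes passed in the strain interaction of each subset and 1, Rps27l (adjusted p = 0.0187), in the subset interaction of NOD mice.

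**Figure D4:**
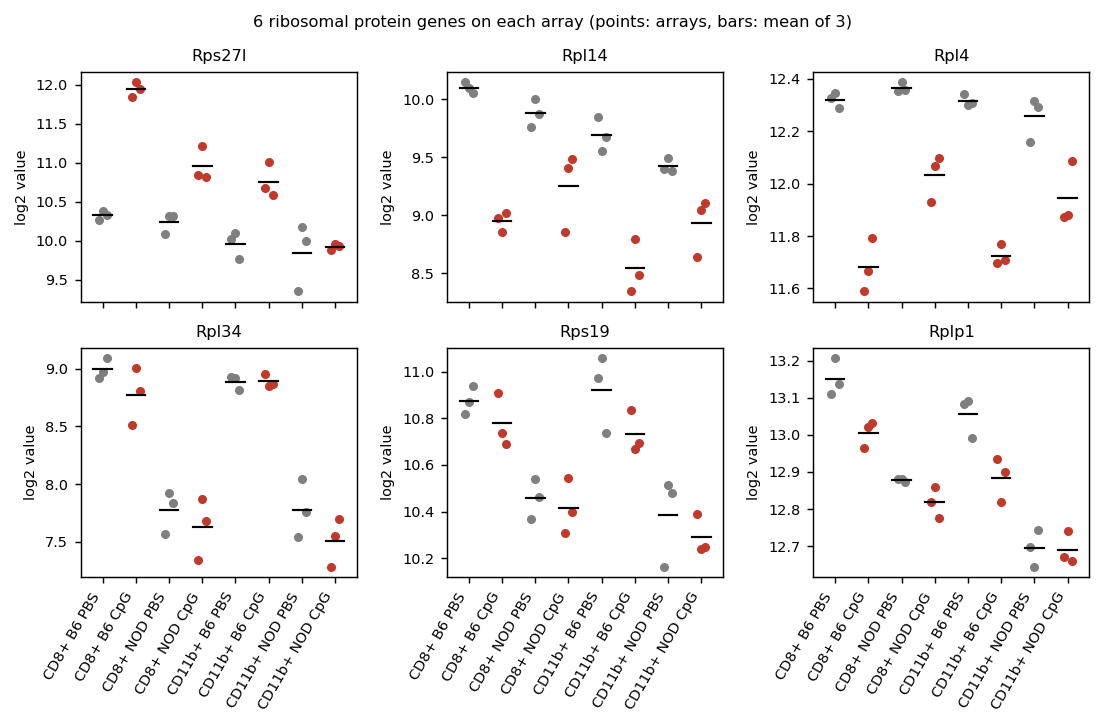
Log2 expression values of Rps27l, Rpl14, Rpl4, Rpl34, Rps19 and Rplp1 on each array by group (points arrays, bars the mean of 3, grey PBS, red CpG). Rps27l reaches between 11.84 and 12.03 in B6 CD8+ cDC after CpG, and Rpl34 lies between 7.28 and 8.04 in all NOD groups and between 8.51 and 9.09 in all B6 groups.

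The strains were compared within each subset and injection. Under PBS 4 of 56 genes were lower in NOD CD8+ cDC and 52 did not pass (1.59% of all genes were lower and 2.03% higher), and 5 were lower in NOD CD11b+ cDC and 51 did not pass (3.18% and 2.41%). After CpG, 4 were lower and 12 higher in NOD CD8+ cDC (7.84% and 12.4% of all genes), and 5 lower and 8 higher in NOD CD11b+ cDC (9.22% and 13.9%). Rpl34, Rps19 and Rplp1 were lower in NOD mice in all 4. Rpl34 was at 8.92, 8.97 and 9.09 in B6 CD8+ cDC under PBS and at 7.57, 7.92 and 7.84 in NOD (-1.22 ± 0.15, limma adjusted p = 9.44e-06), and differed by -1.15, -1.11 and -1.39 in CD8+ CpG, CD11b+ PBS and CD11b+ CpG. No B6 array overlapped a NOD array. Rps19, which is mutated in Diamond-Blackfan anaemia, differed by -0.42, -0.36, -0.54 and -0.44, and Rplp1 by -0.27, -0.19, -0.36 and -0.20. Both CpG calls of Rplp1 were lost with arrays centred on all probe sets (adjusted p = 0.0672 and 0.105), and that in CD11b+ cDC with quantile normalization (0.076). Rpl34 and Rps19 were lower in all 4 comparisons under every scaling tried. Rpl34 and Rps19 rest on 1 probe set each, so their differences could not be checked on another, which a change of scaling does not replace. Probe sets of the same gene did not always give the same strain difference. In CD8+ cDC under PBS those of Rps9 ran from -0.449 to 0.098 and those of Rps2 from -0.535 to -0.074, while those of Rps18 ran from -0.21 to -0.163. The 2 probe sets of Rplp1 differed by -0.27 and -0.36 in CD8+ cDC under PBS. Rps4l was lower in 3 of the 4 comparisons (-0.75, -0.69 and -0.76), and its other probe set gave -0.20 in the first.

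Among the genes higher in NOD mice after CpG, Rpl6 was higher by 0.39 ± 0.08 in CD8+ cDC and by 0.33 ± 0.08 in CD11b+ cDC, Rpl5 by 0.36 and 0.33, Rpl4 by 0.35 and 0.22, Rpl21 by 0.35 and 0.30 and Rpl10a by 0.32 and 0.33. Under PBS none of the 5 passed (between -0.06 and 0.14). All 5 fell with CpG in B6 mice, and the strain comparisons use the same CpG arrays. In CD8+ cDC the fit of only the 2 groups left 1 gene higher and 2 lower, and in CD11b+ cDC centring on the genes tested left 4 higher and 6 lower. The CpG arrays of NOD CD8+ cDC differed among themselves: without replicate 1, 21 genes were higher than in B6, and without B6 replicate 1 or 2 or NOD replicate 3, 6 were. Rps27l was lower in NOD after CpG, by 0.98 in CD8+ and by 0.835 in CD11b+ cDC.

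The subsets were compared within each strain and injection. CD8+ cDC had 5 genes higher than CD11b+ cDC in B6 mice under PBS, 8 higher and 1 lower after CpG, and in NOD mice 9 and 12 higher, where 9.57%, 12.8%, 10.6% and 14.5% of all genes were higher and 12.2%, 24.5%, 11.2% and 24.1% lower. Rps28, Rplp0 and Rpl28 were higher in all 4, Rpl28 by 0.207, 0.215, 0.239 and 0.273. In B6 mice under PBS Rpl28 was at 12.80, 12.86 and 12.83 in CD8+ and at 12.63, 12.59 and 12.66 in CD11b+ cDC. Rpl30 was the gene lower in B6 CD8+ cDC after CpG (-0.56 ± 0.13). These calls moved with the scaling. Under PBS in B6 mice 12 of 56 had an unadjusted limma p under 0.05, which was not counted over all genes. No gene of the 5 passed under all scalings, and centring on all probe sets, as well as the fit without the trend, left 0. Under PBS in NOD mice Rpl28 and Rplp1 passed under all scalings, while Rps28 was lost with centring on all probe sets (adjusted p = 0.0882) and Rplp0 with quantile normalization (0.2). After CpG, Rps27l differed the most, higher in CD8+ cDC by 1.18 in B6 and by 1.04 in NOD mice. Rps27l and Rplp0 were higher under all scalings in both strains, Rps28 in B6, and Rpl28, Rps2 and Rpsa in NOD mice. Rpl30 was lower under all scalings in B6 mice. Centring on the genes tested gave 38 and 39 higher after CpG in B6 and NOD mice, and centring on all probe sets gave 3 and 5. The shares of all genes above are for the deposited values and cannot be set beside these counts. With the replicate block 8 genes passed in B6 mice under PBS, and with 1 of the 6 arrays left out, whichever it was, 1 or 2 did. In NOD mice 4 passed under PBS without CD8+ replicate 2 or 3 or CD11b+ replicate 1, and 6 or 7 after CpG without CD8+ replicate 2 or CD11b+ replicate 1 or 2.

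The other genes of ribosome production and translation were read from lists, to be set against 36.6%, 25.5%, 23% and 5.73% of all genes lower and 21.1%, 15.1%, 15.9% and 9.7% higher in CD8+ B6, CD8+ NOD, CD11b+ B6 and CD11b+ NOD cells. All lists were counted in the deposited values only, not under the other scalings. After CpG in B6 CD8+ cDC, 65 of 76 genes of ribosome biogenesis fell and 2 rose (median -0.83), led by Polr1a, the catalytic subunit of RNA polymerase I (-1.85 ± 0.19), and the nucleolar methyltransferase Fbl (-1.67 ± 0.22). The numbers that fell were 33 in NOD CD8+ (43.4%), 25 in B6 CD11b+ (32.9%) and 3 in NOD CD11b+ cDC (3.95%, below the share of all genes), and 2 and 1 rose in the first and last of these. Of 32 initiation factor genes 24, 18, 14 and 4 fell in the same order and 1 rose, in the first. The 4 in NOD CD11b+ cDC were subunits of initiation factor 3: Eif3e (-0.52 ± 0.15), Eif3f (-0.53 ± 0.13), Eif3h and Eif3k. Of 12 elongation factor and other TOP messengers 10, 9, 7 and 5 fell, and 1, the non-coding Gas5, rose in B6 CD8+ cDC (0.20 ± 0.06). Eef2, which moves the ribosome along the messenger, fell by 1.29, 0.76, 0.72 and 0.49, and Eef1a1, which brings in aminoacyl-tRNA, by 0.34, 0.19, 0.19 and 0.21. Of 75 mitochondrial ribosomal protein genes 53, 24 and 13 fell and 6, 3 and 4 rose in the first 3 comparisons, and 1 rose and 74 did not pass in NOD CD11b+ cDC. The shares that fell were 70.7%, 32% and 17.3%, the last below that of all genes. Their medians were -0.59, -0.32, -0.25 and -0.04. A further list held 3 genes outside the symbol rule. Of these Fau fell by 0.185 and 0.175 in the B6 comparisons. Rpl7l1 and Rsl24d1 are named after ribosomal proteins but need not encode a protein of the finished ribosome. Rpl7l1 fell by 0.84 in B6 CD8+ cDC and Rsl24d1 by 1.13 and 0.60 in CD8+ cDC of B6 and NOD mice.

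**Figure D5:**
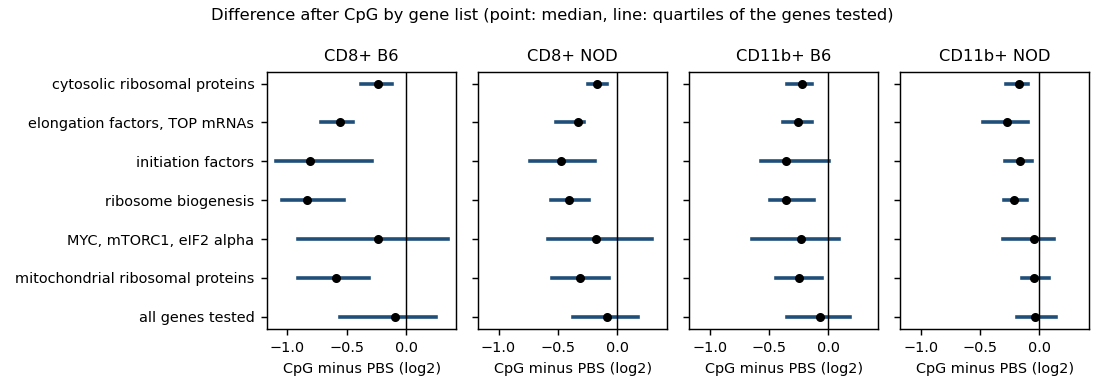
Median (point) and quartiles (line) of the log2 difference CpG minus PBS over the genes tested in each list, in 4 comparisons. In B6 CD8+ cDC the medians are -0.235 for cytosolic ribosomal proteins, -0.83 for ribosome biogenesis and -0.099 for all genes tested.

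Of 33 genes of MYC, mTORC1 and eIF2 alpha control, 16 fell and 10 rose in B6 CD8+ cDC, 12 and 7 in NOD CD8+, 16 and 7 in B6 CD11b+, and 4 and 4 in NOD CD11b+ cDC. These are 48.5%, 36.4%, 48.5% and 12.1% lower, against 36.6%, 25.5%, 23% and 5.73% of all genes. The shares higher are 30.3%, 21.2%, 21.2% and 12.1%, against 21.1%, 15.1%, 15.9% and 9.7%. In a list of 33 such gaps rest on few genes, and the smallest was that of the genes higher in NOD CD11b+ cDC. Myc fell by 1.33 ± 0.25 in B6 CD8+ cDC (limma adjusted p = 8.04e-05) and did not pass in the others (-0.44, -0.11 and -0.31). Mxd1, which competes with MYC for its partner MAX, rose by 2.30, 2.11, 2.32 and 1.83, and Eif2ak2, the interferon-induced kinase PKR that halts initiation, by 2.25, 2.30, 2.29 and 2.64. Larp1 rose by 0.35, 0.32, 0.55 and 0.27. Mtor passed in NOD CD8+ cDC (-0.26 ± 0.10).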

How the data were processed

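Per the submitters' processing notes the authors made the deposited log2 expression values with RMA in Partek, with no version given. They were used as deposited, over 35556 probe sets between 1.92 and 14.1. The array model is unsettled, because the labels give one model and the identifiers fit the annotation of a second. In R 4.3.3, limma 3.58.1 (with statmod 1.5.0) fitted a mean per group over 24 arrays (16 residual degrees of freedom, eBayes with trend, two-sided, Benjamini-Hochberg at 0.05 per comparison) to 11228 genes above their array's median on at least 3 arrays. That median was taken over the probe sets with an annotation entry (the others number 12146). Medians over all probe sets or over the genes were run first and this reading was settled on after their counts were seen, as it matches an earlier description of these data. All 3 are reported. The members and lists were chosen with earlier results of these data known. Named genes were the 6 highest and 6 lowest called per comparison, those called throughout a family or in an interaction, high genes that did not pass, and genes of known roles. Replicate numbers paired arrays in 8 of 12 comparisons of groups, where same-numbered arrays' deviations from the group means all correlated above 0.1 (no source gives their meaning). The number of arrays limits the precision.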

Additional observations from a re-analysis of the deposited data

Results flagged for a closer look

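Differences in the CpG effect between groups passed the limma interaction test for 3 results. The CpG difference of Rps27l in CD8+ cDC was lower in NOD than in B6 mice (-0.90 ± 0.22, adjusted p = 0.0204), and in B6 mice it was higher in CD8+ than in CD11b+ cDC (0.82 ± 0.22, adjusted p = 0.0143). The CpG difference of Rps3 in CD8+ cDC was higher, that is less negative, in NOD than in B6 mice (0.30 ± 0.09, adjusted p = 0.0493).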

How the results depend on the processing

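Counts are of the 56 ribosomal protein genes passing in either direction, without the share of all genes under each setting. Centring on the genes tested gave 18 for 39 (CD8+ B6, CpG), 7 for 30 (CD8+ NOD), 24 for 41 (CD11b+ B6), 10 for 16 and 10 for 13 between strains after CpG in CD8+ and CD11b+ cDC, 39 for 9 and 39 for 12 between subsets after CpG in B6 and NOD mice, and 1 for 2, 1 for 0 and 1 for 0 in the strain interactions of CD8+ and CD11b+ cDC and the subset interaction of NOD mice. It turned Rplp0 to 0.048 and 0.019 in CD8+ cDC of B6 and NOD mice, and Rplp1 to 0.10 and Rpl41 (-0.14) to 0.109 in B6. Between subsets, in the order B6 PBS, B6 CpG, NOD PBS and NOD CpG, centring on all probe sets gave 0, 4, 3 and 5. It also gave 8 for 24 in CD11b+ NOD cells and 0 in the strain interaction of CD8+ cDC. Quantile normalization gave 2 (B6 PBS), 4 (NOD PBS) and 6 (NOD CpG) between subsets, and 4, 5 and 1 in those interactions. Without a filter the same subset counts were 1, 5 and 7. The strain interaction of CD8+ cDC gave 1 without a filter, with the filter on 12 arrays, with the lowest-mean probe set, with the filter median over all probe sets, without the trend, with robust eBayes and with only the groups compared. Without the trend CpG counts in NOD were 19 (CD8+) and 15 (CD11b+), the strain count in CD8+ cDC after CpG 10, and the subset counts 0 (B6 PBS), 2 and 5 (NOD). Robust eBayes gave 3 for B6 PBS. Only the groups compared gave 10 (CpG, CD8+ NOD), 8 and 3 (strain in CD8+ cDC, PBS and CpG), 9 and 3 (subset, B6 PBS and NOD CpG), 1 (strain interaction, CD11b+) and 2 (subset interaction, B6). The fixed replicate block gave 8 (subset, B6 PBS) and 4, 4 and 1 in the strain interactions of CD8+ and CD11b+ cDC and the subset interaction of NOD mice. As a random block it gave 4, 3 and 1 there. Neither block moved another count by over 1.5 times. With 1 array left out, CpG counts ranged over 34 to 38, 16 to 29, 35 to 43 and 12 to 33, strain counts over 3 to 4, 10 to 25, 4 to 5 and 13 to 15 (CD8+ PBS, CD8+ CpG, CD11b+ PBS, CD11b+ CpG), and subset counts over 1 to 2, 7 to 9, 4 to 8 and 6 to 15. The interactions ranged over 0 to 10 (strain, CD8+; 10 without NOD CpG replicate 1), 0 to 1 (strain, CD11b+), 1 to 1 (subset, B6) and 0 to 1 (subset, NOD). Averaging the probe sets of each gene, testing all probe sets singly (counted, after its totals were seen, as genes with most probe sets passing) and the filter median over the genes moved no count by over 1.5 times. The filter medians over all probe sets and over the genes left 11778 and 11365 genes. These settings, the lowest-mean probe set and the counting of single probe sets were chosen after seeing the data. The causes were not tested. Signal over background was not analysed here.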
